A study of Homo sapiens with 6 samples.

Results

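The genes described here are 10 markers and regulators of intestinal epithelial identity and differentiation: CDX1, CDX2, HNF4A, VIL1, KRT20, CDH17, LGALS4, MUC2, TFF3 and CEACAM5. They were taken by symbol, for their known roles and with earlier results of these data known. All 10 were found among the 19223 gene symbols of the deposited RNA-seq table. Only 3 of the 10 had enough signal to be tested, among 12725 genes tested in all. KRT20 RNA was lower after DCC-2036, CDX2 and HNF4A RNA differed by less than the spread between libraries, and the other 7 genes were below a normalized value of 10 in all 6 libraries, 2 of them at 0.

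The RNA came from cells labelled LoVo, a human colon adenocarcinoma line grown from a metastasis and recorded as Dukes' type C. Groups of 3 libraries were compared: Control 1 to 3 received vehicle, and DCC-2036 1 to 3 received 2.5 μM DCC-2036 (rebastinib), a kinase inhibitor, with 48 h given for both groups in the labels. The study's own figure legend gives a shorter exposure, so the time is taken from the labels alone. All values come from 1 line, and since nothing says that the 3 libraries of a group were separate cultures, p-values measure only the spread between these libraries.

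CDX1 and CDX2 are homeobox transcription factors that set intestinal identity along the gut, and HNF4A is a nuclear receptor that acts with them on genes of the mature enterocyte. Their known targets include genes of the brush border and of cell adhesion, such as VIL1, LGALS4 and CDH17. Differentiated colonocytes carry KRT20 and CEACAM5, while goblet cells make the mucin MUC2 and the trefoil peptide TFF3.

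The labelled cell type was first compared with its markers. Levels of different genes were compared per kilobase of transcript, as the mean normalized value over the 6 libraries divided by transcript length, for the 18507 symbols with a length, whose median was 45.0 per kb. General epithelial markers were high: KRT8 stood at 44678 per kb, KRT19 at 17139, KRT18 at 14175, EPCAM at 2949 and CDH1 at 983. The lowest of these, CDH1, was at percentile 92.3 of all symbols. Markers particular to intestinal epithelium were not. CDX2 reached 71.9 per kb, at percentile 55.2, and KRT20 reached 22.0 per kb, at percentile 43.9. GPA33, a surface antigen of the intestinal epithelium, stood at 0.799 per kb, CDH17 at 0.734 and VIL1 at 0.311. CEACAM5 encodes carcinoembryonic antigen, for which LoVo is known as a producing line, and it was above 0 in 1 of the 6 libraries. The libraries were therefore epithelial and had CDX2 and KRT20 RNA, but VIL1, CDH17, GPA33 and CEACAM5 at or near 0 went against the labelled colon adenocarcinoma line. The identity of the line was not tested, and the cells are called here the cells labelled LoVo.

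Among the intestinal genes themselves, mean levels over all 6 libraries were highest for CDX2, followed by KRT20 at 22.0 per kb and HNF4A at 3.06, with LGALS4 at 1.94, CEACAM5 at 0.0525 and CDX1 and TFF3 at 0. The order below KRT20 differed between the groups. In Control, HNF4A at 3.09 per kb was followed by CDH17 at 0.805 and LGALS4 at 0.595, and in DCC-2036, LGALS4 at 3.29 was followed by HNF4A at 3.02 and CDH17 at 0.663. MUC2 had no transcript length and was left out of this order. Per library, CDX2 ranged from 52.6 to 90.0 per kb, KRT20 from 10.2 to 36.9 and HNF4A from 1.56 to 4.78, so these 3 neighbours in the order did not overlap. LGALS4 reached 4.71 per kb in DCC-2036 1 and was 0 in Control 1, and its range overlapped those of HNF4A, CDH17 and VIL1.

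**Figure D1:**
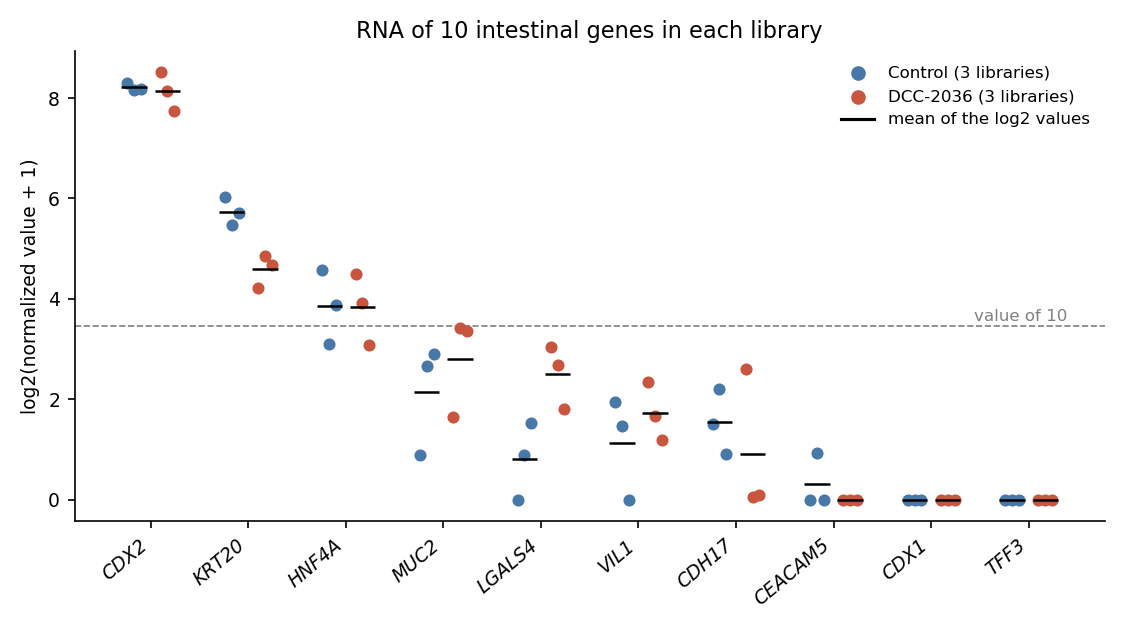
Normalized value of each of the 10 intestinal genes in the 3 Control and 3 DCC-2036 libraries, as log2(value + 1), with bars at the mean of the log2 values and a dashed line at a value of 10. The KRT20 points of the DCC-2036 libraries, 17.7 to 28.0, lie below all Control points, 43.6 to 64.1, and 7 genes lie under the dashed line in all 6 libraries.

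A gene was tested when at least 3 of the 6 libraries reached a normalized value of 10, and it was called at an adjusted p under 0.01 in limma on log2(value + 1). By that rule 0 of the 3 intestinal genes tested were called higher, beside 19.2% of all genes tested, and 1 was called lower, beside 22.7%. The counts at an unadjusted limma p under 0.05 were also 0 higher and 1 lower, beside 3887 higher and 4590 lower among all 12725 genes tested. Of all 12725 genes tested, 41.9% were called in either direction and 71.1% had DCC-2036 values that did not overlap the Control values, so a single call among 3 genes is near the background. That called share depends on the fit. Its counts, 2442 higher and 2887 lower, fell to 1202 and 1909 with the replicate block. Leaving out 1 library gave 929 to 2717 higher and 1502 to 3444 lower. Fewer cells of a type and less RNA per cell cannot be told apart in these bulk libraries.

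The caudal-type transcription factors differed in level. CDX2, which is needed to form and keep intestinal epithelium, had normalized values of 316, 283 and 291 in Control 1 to 3 and of 365, 280.3 and 213 in DCC-2036 1 to 3. The groups overlapped, and DCC-2036 1 was the highest of the 6 libraries and DCC-2036 3 the lowest. The means were 297 ± 17.1 in Control and 286 ± 76.0 in DCC-2036 (SD, n = 3 libraries each), and the log2 fold change was -0.09 (SE 0.20, 95% interval -0.57 to 0.40, limma adjusted p = 0.724). Its interval does not reach a halving or a doubling of CDX2 RNA. The CDX2 log2 fold change was -0.28 after scaling to equal totals and turned to 0.11 without DCC-2036 3. CDX2 was listed with 1 transcript. CDX1, the related factor that is highest in crypts, was listed at 0 in all 6 libraries.

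HNF4A has an upstream promoter, with products known from stomach and gut, and a downstream promoter, with products known from adult liver, kidney and gut. Its leading transcript, which begins at the upstream promoter, had values of 22.8, 7.59 and 13.8 in Control 1 to 3 and of 21.7, 14.1 and 7.45 in DCC-2036 1 to 3. The groups covered nearly the same range, and libraries of 1 group differed more than the groups did. The means were 14.7 ± 7.63 and 14.4 ± 7.12 (SD, n = 3 each), with a log2 fold change of -0.02 (SE 0.47, 95% interval -1.16 to 1.12, limma adjusted p = 0.972). A doubling or a halving of HNF4A RNA lay within the interval, so a change of that size was not detectable at this spread. The HNF4A log2 fold change was -0.20 after scaling to equal totals and turned to 0.043 by median of ratios, to 0.34 without Control 1 and to 0.36 without DCC-2036 3.

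The table listed 10 HNF4A transcripts, 6 from the upstream and 4 from the downstream promoter, with mean values of 5.60 to 14.6 and of 5.45 to 14.4. Transcripts that were identical in all 6 libraries shared a promoter. Across the promoters, the highest transcripts had the same listed values in DCC-2036 1 to 3. In Control 1 to 3 they were nearly the same, at 22.8, 7.59 and 13.8 upstream and 21.8, 7.60 and 13.8 downstream. The authors' values therefore do not separate the promoters. Lower values were listed for 3 of the transcripts, with 9.50, 0.669 and 7.42 in Control 1 to 3 and 11.3, 3.32 and 1.41 in DCC-2036 1 to 3 for the highest of them. Both groups again overlapped. When each transcript was tested on its own, 7 of the 10 passed the filter, and the limma adjusted p lay between 0.968 and 0.999 over 32323 transcripts.

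**Figure D2:**
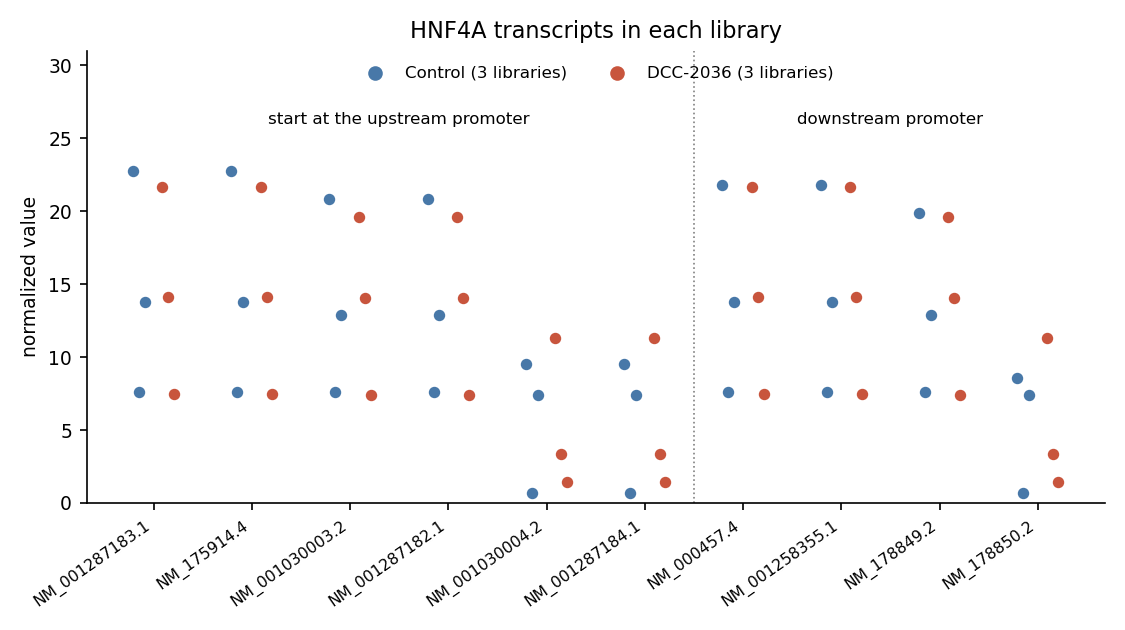
Normalized value of each of the 10 listed HNF4A transcripts in the 3 Control and 3 DCC-2036 libraries, with the 6 transcripts of the upstream promoter on the left and the 4 of the downstream promoter on the right. The highest value on either side is in Control 1, at 22.8 and 21.8, and the groups overlap for every transcript.

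KRT20, the type I keratin of differentiated colonocytes, was the gene of the 10 with a called change. Its values were 64.1, 43.6 and 51.5 in Control 1 to 3 and 17.7, 28.0 and 24.6 in DCC-2036 1 to 3. All 3 treated libraries lay below all 3 controls, and the highest DCC-2036 value was well under the lowest Control value. The mean went from 53.1 ± 10.3 to 23.4 ± 5.25 (SD, n = 3 each), which left 44.1% of the Control level. The log2 fold change was -1.15 (SE 0.21, 95% interval -1.66 to -0.64, limma adjusted p = 0.00427), lower in 3 of 3 DCC-2036 libraries. The call was lost without Control 1 (log2 fold change -1.01, limma adjusted p = 0.0173), without Control 3 (-1.17, 0.0182), with no filter on low values (0.0105) and with the replicate number as a block (0.0214), and the adjusted p ranged from 0.0025 to 0.0214 over all alternatives. Scaling to equal totals moved the median over all genes tested from -0.09 to -0.29 on the log2 scale, and the higher share of all calls from 45.8% to 32.6%. Relative to the median before scaling, the KRT20 difference was -1.06 and the CDX2 difference 0.01. A scaling moves each gene and the median nearly alike, so these relative values are no check on the scaling.

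The promoters of KRT20, CDX2 and HNF4A are shown because these were the 3 genes tested. They are the 250 bases before the start site from RefSeq on GRCh38.p14, a table that held 7 promoters of 6 of the 10 genes. Capitals mark matches on either strand to TTTAT, a core read by CDX factors, or to GTTAAT, an HNF1-type motif.
KRT20, chr17:40885243-40885492, minus strand: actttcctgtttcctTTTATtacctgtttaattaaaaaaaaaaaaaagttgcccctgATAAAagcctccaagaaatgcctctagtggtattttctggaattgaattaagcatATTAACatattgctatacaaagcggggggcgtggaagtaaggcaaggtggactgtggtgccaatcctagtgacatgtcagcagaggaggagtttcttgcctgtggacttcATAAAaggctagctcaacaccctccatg
CDX2, chr13:27969316-27969565, minus strand: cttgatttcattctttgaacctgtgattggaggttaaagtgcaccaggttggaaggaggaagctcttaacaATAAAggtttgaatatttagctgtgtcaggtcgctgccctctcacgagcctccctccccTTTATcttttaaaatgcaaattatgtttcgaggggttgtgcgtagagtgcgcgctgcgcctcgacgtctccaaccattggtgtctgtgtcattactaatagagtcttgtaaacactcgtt
HNF4A upstream promoter, chr20:44355449-44355698, plus strand: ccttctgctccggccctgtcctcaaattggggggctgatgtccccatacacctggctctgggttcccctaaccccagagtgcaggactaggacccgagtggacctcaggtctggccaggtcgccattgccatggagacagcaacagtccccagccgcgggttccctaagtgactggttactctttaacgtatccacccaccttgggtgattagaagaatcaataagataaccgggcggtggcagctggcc
HNF4A downstream promoter, chr20:44400989-44401238, plus strand: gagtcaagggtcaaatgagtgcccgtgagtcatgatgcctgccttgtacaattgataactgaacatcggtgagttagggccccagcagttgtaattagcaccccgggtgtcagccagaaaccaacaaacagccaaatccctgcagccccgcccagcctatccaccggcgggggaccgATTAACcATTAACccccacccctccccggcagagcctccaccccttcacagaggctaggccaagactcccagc
The KRT20 promoter held 3 TTTAT matches, at -235 to -231, -193 to -189 and -28 to -24 from the start site, and 1 GTTAAT match at -138 to -133. CDX2 held 2 TTTAT matches, and the downstream HNF4A promoter held 2 GTTAAT matches, at -73 to -68 and -66 to -61. TTTAT occurred in 4 of the 7 promoters of the intestinal genes and in 32.7% of all 35116 promoters of this length, and GTTAAT in 2 of the 7 and in 6.23%. The HNF4-type site CAAAGNNCA was in 0 of the 7 and in 4.44% of all. A match describes letters only, and binding was not measured.

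VIL1 and CDH17 lay near the floor of the data. VIL1, the actin-bundling protein villin of the brush border, had values of 2.86, 1.76 and 0 in Control 1 to 3 and of 4.12, 2.18 and 1.27 in DCC-2036 1 to 3. The groups overlapped. The exons of VIL1 overlap USP37 on the opposite strand, whose mean value was 822, so reads of USP37 cannot be told apart from VIL1 reads if strand was not used. CDH17, the liver-intestine cadherin, had 1.87, 3.59 and 0.874 in Control 1 to 3 and 5.12, 0.0341 and 0.0675 in DCC-2036 1 to 3. Here DCC-2036 1 was the highest library and DCC-2036 2 and DCC-2036 3 were the lowest. The values of DCC-2036 2 and DCC-2036 3 lay under 0.5, a range in which no Control library listed any symbol above 0. The part of that floor in this order was not tested. The 2 CDH17 transcripts carried the same values.

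LGALS4, a galectin of the intestinal brush border, had 0, 0.865 and 1.87 in Control 1 to 3 and 7.23, 5.41 and 2.53 in DCC-2036 1 to 3. All 3 DCC-2036 values were above all 3 Control values, although none reached 10. That pattern was common: of the 3942 genes with some signal that did not pass the filter, 1016, or 25.8%, had all DCC-2036 values above all Control values, and 251 had them all below. In limma without the filter, the LGALS4 log2 difference was 1.71 (SE 0.49, adjusted p = 0.0346 over 16667 genes), which was not called. The deposited values also differ between the groups at the floor. Values above 0 but under 0.5 were listed for 0 symbols in each Control library and for 1008, 1083 and 1072 symbols in DCC-2036 1 to 3. Such values enter the count of 1016. GUCA2A, for example, was at 0 in Control and at 1.03, 0.00702 and 0.0139 in DCC-2036 1 to 3. LGALS4 had no value of this kind. The part of this floor difference in low genes was not tested.

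CEACAM5, a surface glycoprotein of colonocytes, was listed at 0.905 in Control 2 and at 0 in the other libraries. The other two CEACAM5 transcripts were at 0 throughout. Among goblet cell products, MUC2, the gel-forming mucin of the colon, had 0.866, 5.32 and 6.53 in Control 1 to 3 and 2.14, 9.65 and 9.22 in DCC-2036 1 to 3. Both groups held 1 low and 2 higher libraries, and they overlapped. TFF3, the trefoil peptide secreted with MUC2, was listed at 0 in all 6 libraries. Without the filter, the limma adjusted p was 0.419 for VIL1, 0.538 for CDH17, 0.487 for MUC2 and 0.385 for CEACAM5.

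Of 20 other transcription factors of the intestinal epithelium, 13 were tested, of which 4 were called higher, 3 lower and 6 not called. The 7 calls were 53.8% of those tested, beside 41.9% of all genes tested, and the 13 had a median log2 fold change of -0.43 (-0.63 at equal totals), beside -0.09 over all genes tested. FOXA3, a forkhead factor of gut endoderm, fell from 124, 120.1 and 147 in Control 1 to 3 to 41.3, 19.6 and 11.2 in DCC-2036 1 to 3. The groups were far apart, with a log2 fold change of -2.58 (SE 0.42, limma adjusted p = 0.00282). GFI1, a zinc finger repressor of the secretory lineage, fell from 106, 117 and 151 to 52.7, 35.7 and 19.5. Its log2 fold change was -1.86 (SE 0.35, limma adjusted p = 0.00469).

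In the other direction, FOXA1, a paralog of FOXA3, rose from 36.7, 27.9 and 33.1 in Control 1 to 3 to 90.1, 76.9 and 67.2 in DCC-2036 1 to 3. The groups did not overlap, and the log2 fold change was 1.23 (SE 0.16, limma adjusted p = 0.00117). GATA6, a zinc finger factor of endoderm, rose from 167, 139 and 179 to 338, 314 and 303 (log2 fold change 0.98, SE 0.13, limma adjusted p = 0.00127). SOX9, a factor of crypt progenitors, rose from 1663, 1432 and 1526 to 2323, 2543 and 3161 (0.79, SE 0.14, limma adjusted p = 0.0042). HES1, a Notch target named here because it completes the count of 4, had a log2 fold change of 0.62 (limma adjusted p = 0.00219). HNF4G, the paralog of HNF4A, had 29.2, 29.0 and 26.6 in Control 1 to 3 and 15.5, 15.1 and 7.37 in DCC-2036 1 to 3. Its groups did not overlap, but it narrowly missed the limit (-1.16, SE 0.27, limma adjusted p = 0.0101) and passed it under each of the 3 other scalings (0.00825 to 0.00971), with transcripts summed (0.00589) and without DCC-2036 1 (0.00768) or DCC-2036 3 (0.00107). The calls of FOXA3, GFI1, SOX9 and HES1 were lost without any 1 of Control 1, Control 2, Control 3 or DCC-2036 2 and with the replicate block, with limma adjusted p of 0.0102 to 0.0143, 0.0157 to 0.0211, 0.0139 to 0.0213 and 0.0117 to 0.0151. With no filter on low values the calls of GFI1 (limma adjusted p 0.0113) and SOX9 (0.0104) were lost too. The calls of FOXA1 and GATA6 were kept in every alternative run.

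Of 33 further brush border and absorptive cell genes, 20 were below 10 in all 6 libraries and 7 were at 0 in all. Summed values of the 33 were 37256, 37460 and 39061 in Control 1 to 3 and 45373, 50710 and 54356 in DCC-2036 1 to 3. EZR was the most abundant, did not overlap between the groups and was not called (log2 fold change 0.42, limma adjusted p = 0.0152). Among the 12 tested, 2 were called higher and 1 lower, with a median log2 fold change of 0.32 (0.22 over 13 genes at equal totals). These 3 calls were 25% of those tested, beside 41.9% of all genes tested, whose median was -0.09. CDHR5, a protocadherin that links microvilli, rose from 8.47, 9.75 and 5.44 in Control 1 to 3 to 23.9, 27.1 and 34.8 in DCC-2036 1 to 3. The groups were clearly separated (log2 fold change 1.75, SE 0.23, limma adjusted p = 0.00133). EPS8, an actin-capping protein of microvilli, rose from 585, 670.3 and 512 to 916, 1115 and 1306 (0.91, SE 0.17, limma adjusted p = 0.00452). CA2, a carbonic anhydrase of colonocytes, fell from 194, 162 and 171 to 116, 101 and 83.7 (-0.81, SE 0.15, limma adjusted p = 0.00428). Control values of CDHR5 were all under 10, so it passed the filter through the DCC-2036 libraries alone. Without any 1 of Control 1, Control 2, Control 3 or DCC-2036 2 the calls of EPS8 (limma adjusted p 0.0116 to 0.0203) and CA2 (0.0149 to 0.0201) were lost, as they were with no filter (0.011 and 0.0105), and the EPS8 call also with the replicate block (0.0168).

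Of 18 goblet cell and mucin genes besides MUC2 and TFF3, 12 were below 10 in every library, 6 were tested, and 1 was called in each direction. The 2 calls were 33.3% of those tested, beside 41.9% of all genes tested. At an unadjusted limma p under 0.05, 1 was higher and 4 were lower, beside 3887 higher and 4590 lower among all 12725 genes tested. The median log2 fold change of the 6 was -0.78 (-0.96 at equal totals), beside -0.09 over all genes tested. This list median includes genes that passed the filter through 1 group alone. Summed values of the 18 were 347, 276 and 269 in Control 1 to 3 and 169, 144 and 156 in DCC-2036 1 to 3, with FCGBP the most abundant. FCGBP, a mucus protein that binds the MUC2 network, fell from 212, 194 and 179 in Control 1 to 3 to 68.5, 70.4 and 78.4 in DCC-2036 1 to 3. The Control values were all more than double the DCC-2036 values (log2 fold change -1.42, SE 0.11, limma adjusted p = 0.000314). MUC5B, a gel-forming mucin, rose from 4.68, 5.25 and 6.47 to 15.6, 12.0 and 17.4 (1.30, SE 0.17, limma adjusted p = 0.00136), and this call was lost with a mean-variance trend (0.0148). Like CDHR5, MUC5B passed the filter through the DCC-2036 libraries alone, and MUC4, a membrane mucin that was not called, passed it through the Control libraries alone. TFF1, a paralog of TFF3, was at 0 in Control and at 3.10, 3.23 and 1.27 in DCC-2036 1 to 3, and MUC13 did not exceed 2.11.

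Of 19 epithelial keratins, CEACAMs, galectins and surface glycoproteins, which include relatives of KRT20, CEACAM5, LGALS4 and CDH17, 13 were tested. Of these, 6 were called higher and 0 lower, beside 19.2% higher and 22.7% lower of all genes tested. At an unadjusted limma p under 0.05, 10 were higher and 1 was lower, beside 3887 and 4590 among all 12725 genes tested. The median was 0.84 (0.65 at equal totals), beside -0.09 over all genes tested. These counts and medians include LGALS2, which passed the filter through the DCC-2036 libraries alone. KRT8, a keratin of simple epithelia, rose from 55603, 60058 and 64134 in Control 1 to 3 to 92924, 106391 and 125395 in DCC-2036 1 to 3 (log2 fold change 0.84, SE 0.14, limma adjusted p = 0.00287). KRT18, its partner, whose annotated exons overlap KRT8 on the opposite strand, was not called (0.37, limma adjusted p = 0.0301). It passed the limit with a mean-variance trend (limma adjusted p 0.00957) and was at 0.17 after scaling to equal totals (0.147). KRT19 overlapped between the groups, with a log2 fold change of 0.04 that turned to -0.16 after scaling to equal totals. KRT7 was called higher (1.16, SE 0.22, limma adjusted p = 0.00457). The KRT8 and KRT7 calls were lost without any 1 of Control 1, Control 2, Control 3 or DCC-2036 2 (limma adjusted p 0.0116 to 0.0154 and 0.0142 to 0.0204), and the KRT7 call with no filter (0.0111). KRT80, an epithelial keratin, had 504, 458 and 471 in Control 1 to 3 and 384, 307 and 259 in DCC-2036 1 to 3, which did not overlap, and was not called (-0.61, limma adjusted p = 0.0159). KRT80 passed the limit with a mean-variance trend (limma adjusted p 0.00866) and without DCC-2036 1 (-0.76, 0.00309). Among the keratins named, KRT20 was the one called lower at this limit.

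CDH1, the epithelial cadherin, rose from 1635, 1569 and 1610 in Control 1 to 3 to 3305, 3458 and 3571 in DCC-2036 1 to 3. The libraries of each group lay close together (log2 fold change 1.10, SE 0.09, limma adjusted p = 0.000354). LGALS3, a galectin of many epithelia, rose from 1154, 1371 and 1463 to 2256, 2536 and 2918 (0.95, SE 0.15, limma adjusted p = 0.00224). LGALS2, a galectin of the gut, rose from 0.888, 6.35 and 1.79 to 18.7, 38.6 and 18.0 (2.86, SE 0.54, limma adjusted p = 0.00467), and it passed the filter through the DCC-2036 libraries alone. The tetraspanin TSPAN1 was also called higher (1.26, SE 0.18, limma adjusted p = 0.00182). CEACAM1, a paralog of CEACAM5, had 4.61, 9.73 and 10.2 without and 20.7, 13.1 and 19.8 with DCC-2036, which did not overlap, and was not called (1.08, limma adjusted p = 0.0223). CEACAM6 did not exceed 1.06. LGALS8, a further galectin, went the other way, with 1022, 960 and 1044 in Control 1 to 3 and 921, 906 and 697 in DCC-2036 1 to 3. These did not overlap, and LGALS8 was not called (-0.27, limma adjusted p = 0.127). The CDH1 call held in every alternative run. Left-out libraries ended the calls of LGALS3 (Control 1, Control 2 or DCC-2036 2, limma adjusted p 0.0105 to 0.0114), LGALS2 (Control 1, Control 3 or DCC-2036 2, 0.016 to 0.021) and TSPAN1 (Control 1, 0.0103), and the LGALS2 call was lost with no filter (0.0113).

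**Figure D3:**
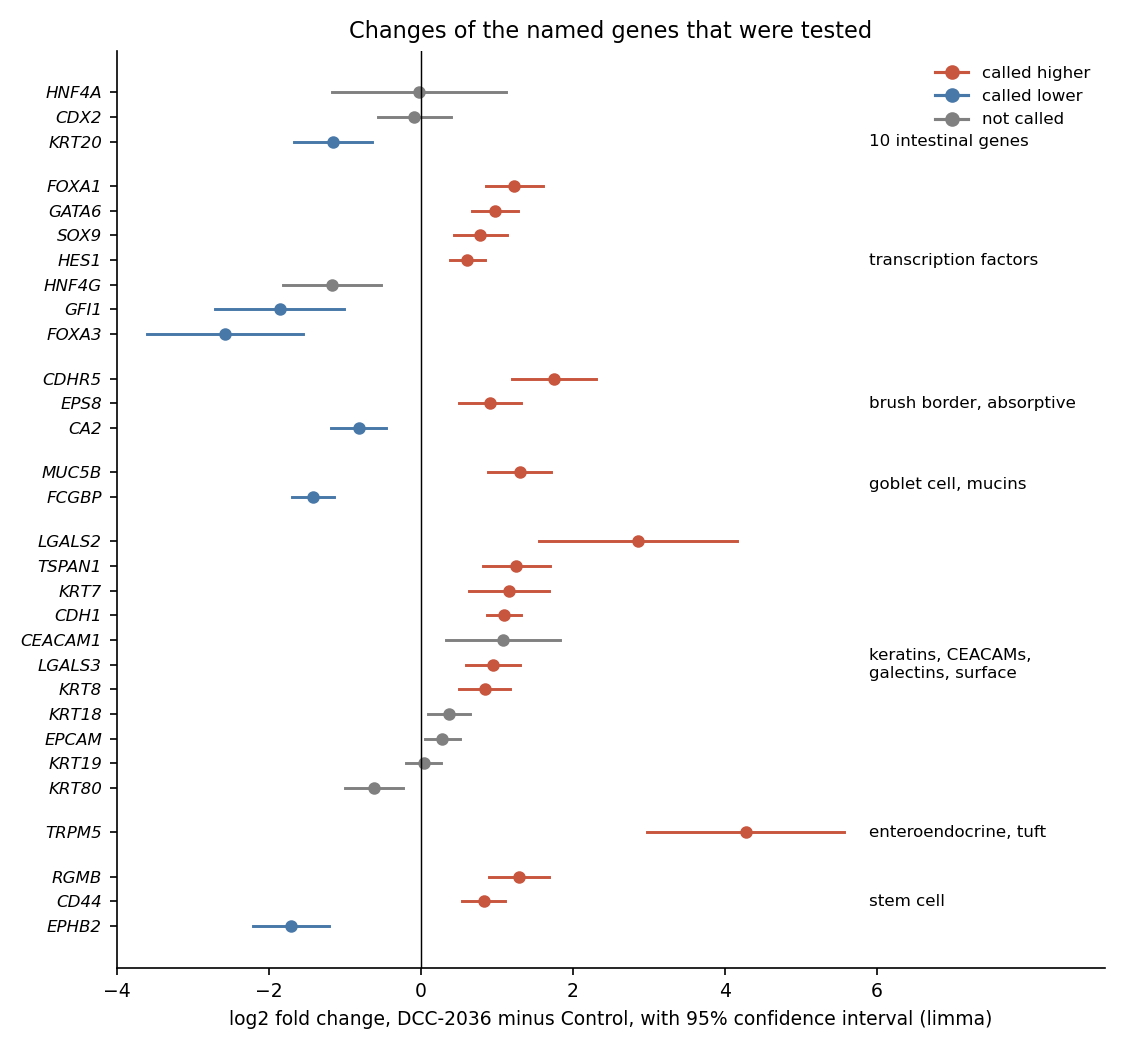
Log2 fold change, DCC-2036 minus Control, with its 95% confidence interval from limma (3 libraries a group), for the tested genes named by list, colored by whether they were called at an adjusted p under 0.01. KRT20, at -1.15, lies left of 0, CDX2 and HNF4A straddle 0, and the plotted keratins, CEACAM1, galectins and surface genes lie at or right of 0 apart from KRT80 at -0.61, with KRT19 turning to -0.16 under scaling to equal totals. The galectin LGALS8, at -0.27, is not among the plotted genes.

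Of 13 enteroendocrine and tuft cell genes, 3 were tested and 1 was called higher, and the median of 0.77 (1.78 over 2 genes at equal totals) is over 3 genes of which 2 passed the filter through the DCC-2036 libraries alone. TRPM5, a cation channel of tuft cells, rose from 0, 2.72 and 0.903 in Control 1 to 3 to 24.0, 31.6 and 62.2 in DCC-2036 1 to 3 (log2 fold change 4.27, SE 0.54, limma adjusted p = 0.00115). These 2 were TRPM5 and POU2F3, a tuft cell factor that was not called. The third, SCG2, was the most abundant gene of this list and went the other way. It had 455, 391 and 380 in Control 1 to 3 and 259, 313 and 371 in DCC-2036 1 to 3. These did not overlap, and SCG2 was not called (-0.39, limma adjusted p = 0.073). The single call was 33.3% of the 3 tested, beside 41.9% of all genes tested. Of 10 intestinal stem cell genes, 5 were tested, 2 were called higher and 1 lower, with a median of -0.58 (-0.78 at equal totals). These 3 calls were 60% of the 5 tested, beside 41.9% of all genes tested, whose median was -0.09. EPHB2, a crypt receptor and Wnt target, fell from 535, 483 and 486 to 206, 146 and 118 (-1.71, SE 0.21, limma adjusted p = 0.001). RGMB, a BMP co-receptor, rose (1.30, SE 0.16, limma adjusted p = 0.00113), as did CD44, a hyaluronan receptor (0.83, SE 0.12, limma adjusted p = 0.00172), whose call was lost without Control 2 (0.0114) or Control 3 (0.0104). The stem cell markers LGR5 and OLFM4 were at 0 in all 6 libraries.

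Of 21 markers of other cell types, 4 were tested and 1 was called higher, and 12 were below 10 in all libraries. The call was 25% of those tested, beside 41.9% of all genes tested. The median log2 fold change of the 4 was 0.83 (0.64 at equal totals), beside -0.09 over all genes tested. Their summed values were 487, 494 and 453 in Control 1 to 3 and 652, 629 and 744 in DCC-2036 1 to 3, and the most abundant was COL1A1, at 353 to 393 and 420.1 to 520.2. KRT5, a keratin of squamous epithelium, was the gene called, with 34.8, 39.7 and 28.4 without and 105, 109 and 99.8 with DCC-2036 (log2 fold change 1.59, SE 0.14, limma adjusted p = 0.000422). Of the 21, 3 were at 0 in all 6 libraries, namely PTPRC of leukocytes, APOH of liver and GKN1 of stomach. Other markers of these tissues were listed above 0. GAST, the gastrin gene of the stomach, had 15.8, 26.4 and 28.7 in Control 1 to 3 and 22.9, 33.6 and 45.2 in DCC-2036 1 to 3, and was not called. ALB of liver had 4.76 and 3.71 in Control 1 and Control 3 and 0 elsewhere, LYZ of myeloid cells ranged from 2.74 to 25.1, and CD14 of monocytes ranged from 1.12 to 5.38. The part of this list in the changes above was not tested.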

How the data were processed

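RNA-seq libraries of 3 Control and 3 DCC-2036 samples were analysed from 1 deposited table of 45006 RefSeq transcripts under 19223 symbols. Its values are a normalized signal as deposited by the authors, not whole numbers. The normalization, aligner, build and counting method are not given in the sources used here. Whole reads were not recovered and depth is unknown. Summed values were 38997229, 39956227 and 40587145 in Control 1 to 3 and 43279603, 45957597 and 48023306 in DCC-2036 1 to 3. All DCC-2036 totals were thus above all Control totals, and the main fit used the values without further scaling. The authors' log2 fold change, p-value and q-value columns were not used. Each symbol was represented by 1 transcript, that of highest mean value. Values were analysed as log2(value + 1), so fold changes of low genes are understated, in limma 3.58.1 (R 4.3.3) with Benjamini-Hochberg adjustment, after a filter of at least 10 in at least 3 libraries. The code was tested on simulated data. Lengths came from GENCODE 29, and Python 3.11.15, pandas 2.3.3 and matplotlib 3.10.9 were used. Transcripts of a gene share reads. KRT8 and KRT18, and FOXA1 and TTC6, also overlap on opposite strands. With 3 against 3, a two-sided exact permutation test cannot go below 0.1. Named were the 10 genes, the called genes with the 3 largest positive and 3 largest negative fold changes of each other list, and direct paralogs, apart from 1 gene that is not reported here. HES1, KRT5, KRT80, LGALS8, SCG2, LGR5, OLFM4, POU2F3, MUC4, EZR, GUCA2A and the single markers of other cell types were named after their values were seen. EPCAM and GPA33 were named as cell type markers. Members and lists were chosen with earlier results of these data known. Alternatives were other scalings, pseudocount, filters, summed transcripts, a mean-variance trend, a replicate block and leaving out each library.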

Additional observations from a re-analysis of the deposited data

How the results depend on the processing

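The single call among the 10 intestinal genes, KRT20 lower, fell to 0 without a filter and with the replicate block, and the count ranged from 0 to 1 when each library was left out, being 0 without Control 1 or Control 3. Same-numbered libraries did not deviate together (correlations 0.081, -0.0352 and -0.00329), so the numbers do not pair them. With the block, 1202 genes were called higher and 1909 lower. Leaving out 1 library gave 929 to 2717 higher and 1502 to 3444 lower, beside 2442 and 2887 with all libraries. The counts were 968 and 1571 without Control 1, 942 and 1502 without Control 2 and 965 and 1534 without Control 3. They were 929 and 1650 without DCC-2036 2, but 2717 and 3444 without DCC-2036 1 and 2501 and 3198 without DCC-2036 3. Each of these fits had 1 library fewer, and the counts moved both ways. Scaling to equal totals gave 1670 higher and 3446 lower. Uncalled log2 fold changes turned sign for CDX2 (-0.28 to 0.11 over left-out libraries, positive without DCC-2036 3), HNF4A (0.043 by median of ratios, -0.40 to 0.36 over left-out libraries, 0.34 without Control 1 and 0.36 without DCC-2036 3) and KRT19 (-0.16 at equal totals). The cause was not tested. Depth is unknown, so no limit can be set for genes listed at 0.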
